A study of Mus musculus with 8 samples.

Results

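The proteasome is the protease of the cytosol and nucleus that breaks down proteins tagged with ubiquitin. It was examined here through its genes, taken as the protein-coding genes whose symbol is Psm, a letter from a to g and a number. That rule took 50 of the 25343 genes of the deposited table. They comprised 19 genes of the core particle (Psma and Psmb), 21 genes of the Psmc and Psmd series, which are named for the regulatory particle, and 10 others (Psme, Psmf and Psmg). RNA came from hair cells, which turn sound into nerve signals in the cochlea, after sorting for the reporter Atoh1-GFP. The 4 wild-type libraries and the 4 libraries of Ndp knockout mice shared a mixed C57BL/6 and 129 background and an age of postnatal day 4 to 6. Ndp encodes norrin, a secreted ligand of the receptor encoded by Fzd4. Each tube held 12 to 20 sensory epithelia, so a library is a pool of tissue, and the labels give neither the Ndp allele nor the sex of the animals.

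The core particle is a barrel of stacked rings. The outer rings are built from alpha subunits, encoded by Psma genes, and gate the entrance. The inner rings are built from beta subunits, encoded by Psmb genes, of which Psmb5, Psmb6 and Psmb7 carry the constitutive proteolytic sites. The regulatory particle caps the barrel. Its base holds a ring of ATPases, encoded by Psmc1 to Psmc6, which unfolds substrates, and its lid holds Psmd14, the enzyme that removes ubiquitin chains. In immune cells and after interferon the catalytic subunits are replaced by those encoded by Psmb8, Psmb9 and Psmb10, which form the immunoproteasome and favour peptides for presentation by MHC class I. Transcription factor Nrf1, encoded by Nfe2l1, raises the proteasome genes together when proteasome activity is limiting. Hair cells are not replaced in the mammalian cochlea, so each has to keep its proteins in repair for the life of the animal.

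Recovered reads numbered 35077950 to 48329827 per library. The 12 hair cell markers examined were all detected, with summed levels of 355162 to 399789 normalized counts in wild type and 377961 to 450937 in the knockout. Their log2 differences by limma, knockout minus wild type, were positive in 9 and negative in 3, with a median of 0.12. At an unadjusted p under 0.05, 3 were higher and 0 lower in the knockout. The 12 supporting cell markers were also high, at 276444 to 503553 and 328353 to 458633. RNA typical of supporting cells was therefore present, and which cells it came from was not tested. Of these 12, 5 log2 differences were positive and 7 negative by limma (median -0.10), with 3 lower and 0 higher at an unadjusted p under 0.05. Over all genes 2.47% were lower and 3.1% higher at that limit, and no marker of either list was called. In bulk RNA, fewer cells of a type and less RNA per cell cannot be told apart. Ndp itself had 174, 90.4, 114 and 206 normalized counts in wild-type replicates 1 to 4 and 10.5, 22.6, 66.8 and 45.1 in knockout replicates 1 to 4. Its groups did not overlap, as in 3.04% of all genes, and its log2 difference of -2.20 ± 0.56 (SE) had an adjusted p of 0.895 by limma. The labels do not say how the libraries of a genotype were obtained beyond the pooling, so a p-value reflects no more than the variation among these 8 libraries, which may be technical.

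Promoter sequences show a feature that the choice of genes did not use. RefSeq promoters (GRCm38.p6, 250 bases before to 50 bases after the start) were matched for 42 of the 50 genes. The ETS site CCGGAAG, searched on both strands, occurred in 9 of 14 matched regulatory particle subunits (64.3%) and in 1 of 11 matched constitutive core subunits (9.09%). Over all 42 matched proteasome genes it occurred in 15 (35.7%). It occurred in 9.93% of 27025 genes with a promoter and in 17.7% of the 12301 of them that were tested for expression here. ETS sites of regulatory particle genes are shown as examples of that group, with the one core gene that had the site, Psma6, and with the antioxidant response element core of Psmb6, the most abundant core gene per kilobase of principal transcript. Capitals mark the motif, which stands as its reverse complement in Psmd2 and Psmd11, and each sequence runs 5′ to 3′ on the strand of its gene.
Psmc6, ETS site, chr14:45329709-45329745, plus strand: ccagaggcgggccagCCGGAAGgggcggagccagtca
Psmd2, ETS site, chr16:20651611-20651647, plus strand: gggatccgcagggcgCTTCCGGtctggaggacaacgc
Psmd4, ETS site, chr3:95042718-95042754, minus strand: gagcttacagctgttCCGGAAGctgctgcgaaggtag
Psmd11, ETS site, chr11:80428589-80428614, plus strand: aacgcgagggcgggtCTTCCGGgtgt
Psma6, ETS site, chr12:55398678-55398714, plus strand: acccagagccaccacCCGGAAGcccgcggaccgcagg
Psmb6, antioxidant response element core, chr11:70525333-70525356, plus strand: gcggactaaagagagTGACGGAGC
The sites began 100 bases before the RefSeq start in Psmc6, 26 bases before it in Psmd2, 125 in Psmd4, 11 in Psmd11, 132 in Psma6 and 9 in Psmb6. None of these stretches lay in an exon of GENCODE M21, and that of Psma6 lay in an intron, upstream of another RefSeq start of the gene. The antioxidant response element core TGACNNNGC, which factors of the Nrf family bind, occurred in 14.3% of the matched proteasome genes. It occurred in 14.0% of all genes with a promoter and in 16.6% of those tested here. The CCAAT box (CCAAT) occurred in 35.7%, against 41.1% and 42.2%. The core of the interferon-stimulated response element occurred in 11.9%, against 3.99% and 3.44% (0 of the 3 immunoproteasome genes). The gamma-activated site TTCNNNGAA occurred in 7.14%, against 9.55% and 8.19%. By particle, the CCAAT box was split the other way from the ETS site, in 6 of 11 core genes (54.5%) and 4 of 14 regulatory genes (28.6%). The antioxidant element occurred in 2 of 11 and 2 of 14, the interferon element in 1 and 1, and the gamma-activated site in 0 and 1. Splits by particle were counted for all 5 motifs, and none was tested. All 5 motifs were searched on both strands, and no match overlapped a match of another motif in these genes. A gene was counted if any of its RefSeq promoters held the motif. A match describes letters in a window of 300 bases and was not tested as a binding site.

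Nearly the whole proteasome was expressed in these cells, with a higher median for the core than for the regulatory particle. Per kilobase of the principal GENCODE transcript, the 14 constitutive core subunits had 3628 to 13248 normalized counts as means over the 8 libraries, with a median of 6289. The 17 regulatory particle subunits had 1729 to 8167 per kilobase, with a median of 3941. The ranges overlapped, so several regulatory subunits, such as the lid subunit Psmd6 (8167 per kilobase) and the ATPase subunit Psmc5 (6782), lay above the core median. Among core genes Psmb6, the caspase-like catalytic subunit, stood highest (13248), followed by the structural subunit Psmb2 (11575) and the alpha subunit Psma7 (11035). The lowest constitutive core genes were Psma2 (3628), the catalytic subunit Psmb7 (3789) and Psma3 (3940). Lengths are annotated ones, and the transcripts made in these cells were not measured. Over the union of annotated exons in place of the principal transcript, the medians were 3015 for the core and 2262 for the regulatory subunits. The order of single genes depended on the length used: over the union Psmb5 was highest (8821), then Psmb2 (8258), with Psmb6 at 5647, and Psmb7 was the lowest core gene (1285).

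The assembly chaperones were lower per kilobase of the principal transcript than every constitutive subunit, though not over the union of exons, where Psmg4 (1023) and Psmg1 (1016) lay above the lid subunit Psmd11 (771). The chaperones of the core particle, Psmg1 to Psmg4, had 1023 to 1308 per kilobase, and the 3 chaperones of the base that carry Psmd names (Psmd5, Psmd9 and Psmd10) had 518 to 939. Of the activators, which open the gate of the core particle in place of the regulatory particle, Psme3 had 2853, Psme2 2420 and Psme1 2002 per kilobase. The large activator Psme4 had 393. Psmf1, which encodes an inhibitor of the core particle, had 971. Psmc3ip takes its name from binding Psmc3 and is a meiotic recombination factor, not a subunit, and it had 246.

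**Figure D1:**
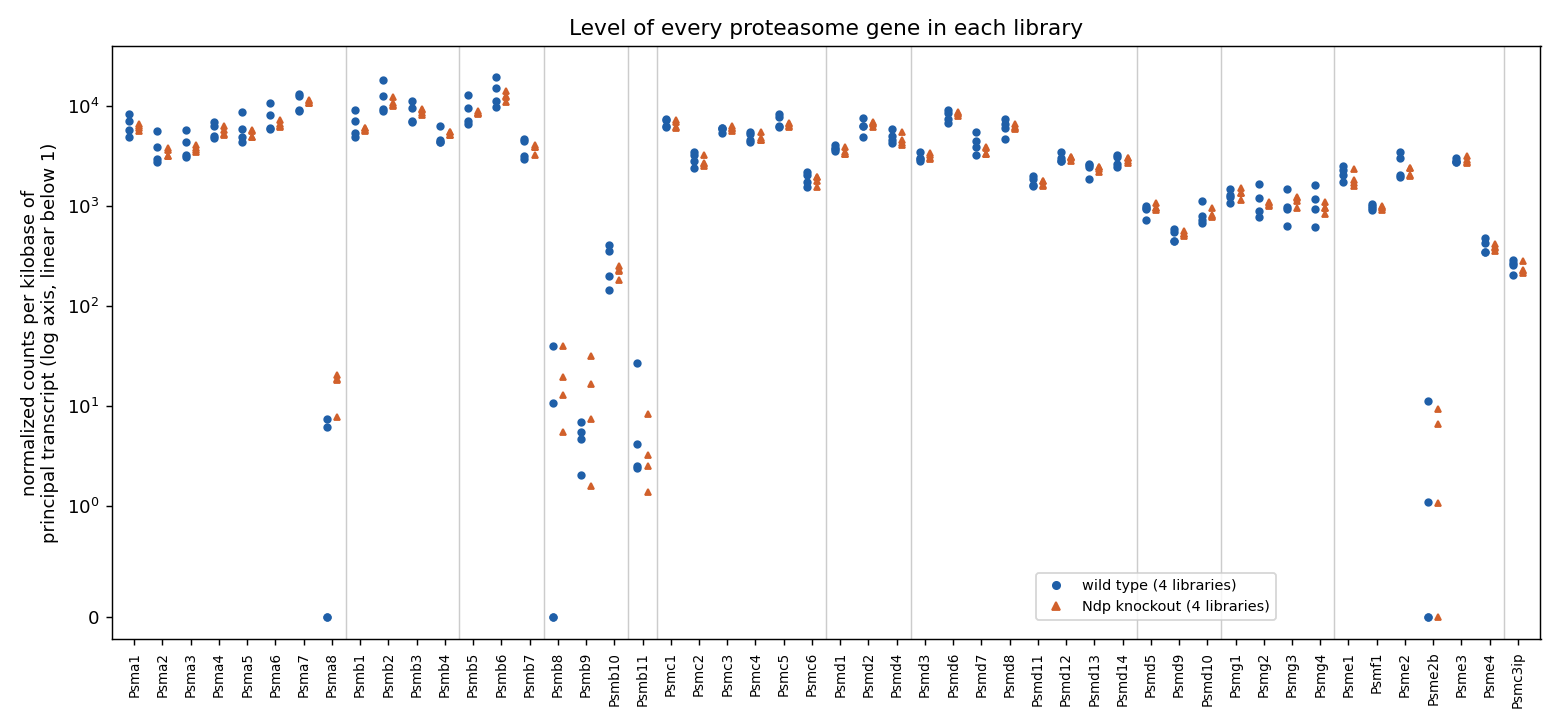
Normalized counts per kilobase of the principal transcript for the 50 genes, with 1 point per library (circles, 4 wild-type libraries; triangles, 4 Ndp knockout libraries) on a log axis that is linear below 1. Vertical lines separate the groups in the order alpha ring, structural beta, constitutive catalytic beta, immunoproteasome, thymoproteasome, ATPases, other base subunits, lid, base chaperones, core chaperones, activators with the inhibitor, and Psmc3ip. Only Psma8, Psmb8, Psmb9, Psmb11 and Psme2b lie below 100 in every library.

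Of the 50 genes, 6 are set apart by their role: the induced immunoproteasome subunits Psmb8, Psmb9 and Psmb10, the thymus subunit Psmb11, the testis alpha subunit Psma8, and Psme2b, a copy of Psme2 with a single exon. The remaining 44 are called the widely expressed genes. All 44 were above the minimum for testing, namely 4 or more libraries with a normalized count of 10 or more, as were Psma8, Psmb8, Psmb10 and Psmb11. Psmb9 and Psme2b were below it and were not tested.

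After adjustment the test found no difference between the genotypes in any proteasome gene. With limma on log2(normalized count + 1), 0 of 48 tested genes had an adjusted p under 0.05, where 0.00549% of the 18203 genes tested did. At an unadjusted p under 0.05 there was 1 proteasome gene, Psma8, where 5.57% of all genes passed (3.1% higher and 2.47% lower in the knockout). On the recovered reads, edgeR's quasi-likelihood test made 0 calls among the 48, with 0 at an unadjusted p under 0.05, and DESeq2 made 0 and 0. Over all genes edgeR called 0% with 4.55% at an unadjusted p under 0.05, and DESeq2 called 0.0882% (16 genes) with 6.26%. The authors' deposited table calls 34 genes at an adjusted p under 0.05, or 0.136%, and no proteasome gene is among them. In the authors' deposited table the lowest adjusted p among these genes is 0.856, that of Psma8. The log2 difference, knockout minus wild type, was positive in 19 and negative in 29 of the 48, with a median of -0.04, beside 52.5% positive and a median of 0.02 over all genes. That split moved with single libraries: 32 were positive without wild-type replicate 4, 28 without wild-type replicate 1, and 10 without the libraries of the shared title date.

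**Figure D2:**
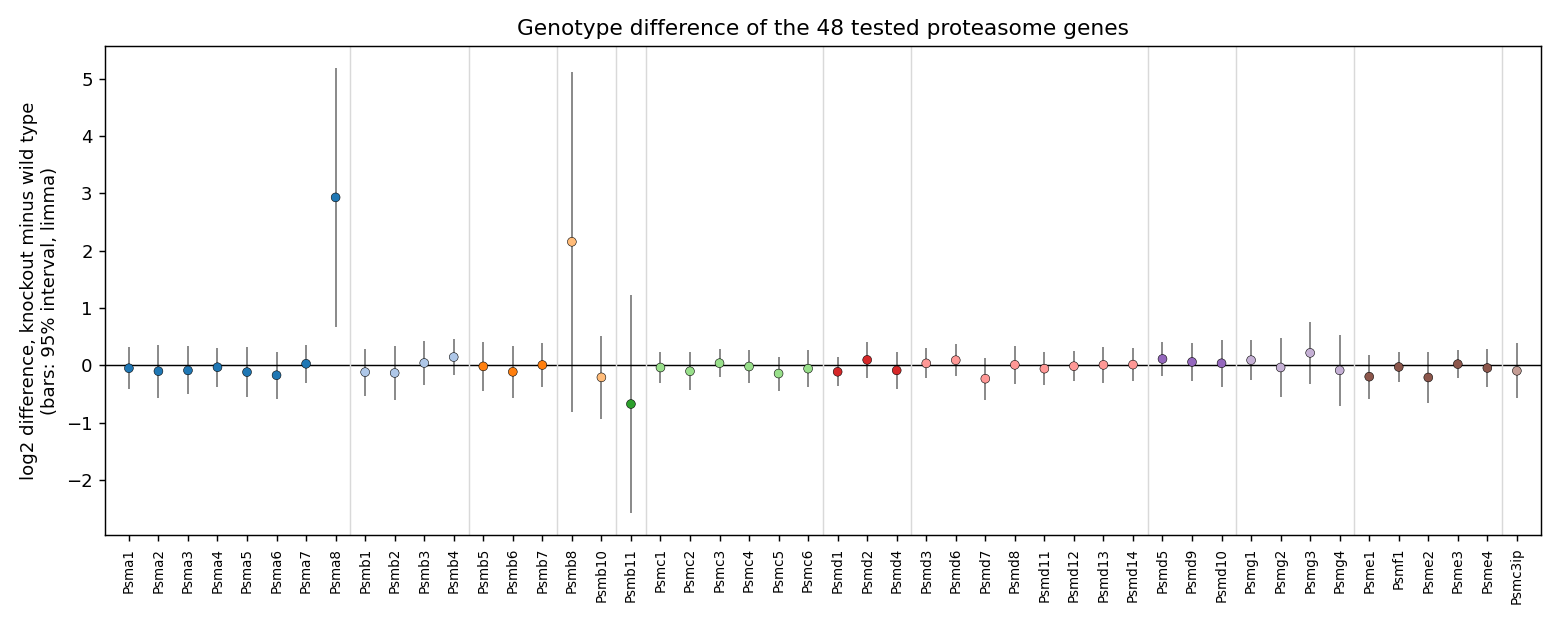
Log2 difference (knockout minus wild type) of the 48 tested proteasome genes with 95% intervals from limma, 4 libraries per genotype, grouped by role and separated by vertical lines. The 44 widely expressed genes lie between -0.23 and 0.22, and the wide intervals belong to Psma8, Psmb8 and Psmb11.

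The limma intervals of the widely expressed genes are given gene by gene and have no joint coverage. Each rests on 1 variance for both genotypes, although the spread between libraries differed, as described below. They reflect no more than the variation among these 8 libraries. The 14 constitutive core subunits had log2 differences of -0.17 to 0.14, and their 95% intervals all lay within -0.60 to 0.46, a ratio of knockout to wild type of 0.660 to 1.37. The 17 regulatory particle subunits had differences of -0.23 to 0.09, with intervals within -0.60 to 0.40, or ratios of 0.658 to 1.32. Over all 44 the intervals lay within ratios of 0.613 to 1.69. In simulated data of the same size limma called 31 of 100 genes changed 2-fold and 63 of 100 changed 4-fold. The changed genes were drawn at random from all 18203 tested genes, so these counts do not give the recovery for proteasome genes. The simulated data held no length trend and had 1 dispersion per gene for both genotypes.

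The 3 constitutive catalytic subunits were arranged much alike over the libraries. Psmb5, which carries the chymotrypsin-like site, had 8537, 6378, 6004 and 11557 normalized counts in wild-type replicates 1 to 4 and 7537, 8079.9, 7707 and 7641 in knockout replicates 1 to 4. All 4 knockout libraries lay inside the wild-type range, with replicates 1 and 4 of wild type above them and replicates 2 and 3 below. The gene lies on the minus strand of chromosome 14 at 54614119 to 54618022 (mm10). Its log2 difference was -0.02 ± 0.19 (SE), with a limma adjusted p of 0.998. Psmb6 had 12183, 7849, 8994 and 15609 in wild type and 8757, 11190.0, 9917 and 10075 in the knockout. The knockout libraries again lay inside the wild-type range, but knockout replicate 1 was below wild-type replicate 3. The log2 difference of Psmb6 was -0.11 ± 0.20 (limma adjusted p = 0.988). Psmb7, which carries the trypsin-like site, had 5387, 3427, 3675 and 5209.9 in wild type and 4512, 4684, 3769 and 4498 in the knockout. Its log2 difference was 0.01 ± 0.17 (limma adjusted p = 0.998). As for Psmb5, all its knockout libraries fell between the lower and the upper pair of wild-type libraries.

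The structural beta subunits repeated the arrangement. Psmb2 had 10963, 7724, 8056 and 15632 normalized counts in wild type and 8776, 10582, 8537 and 9274 in the knockout. Psmb1 had 12567, 8549.6, 9419 and 15975 in wild type and 10222, 10708, 9899 and 10720.3 in the knockout. For both genes the knockout libraries lay between replicates 2 and 3 and replicates 1 and 4 of wild type. Psmb4 had 5430.3, 5120.1, 5218 and 7419 in wild type and 6124, 6568, 6510.4 and 6124 in the knockout, so 3 wild-type libraries lay below every knockout library and replicate 4 above. Psmb3 had 7387, 5262, 5469 and 8665 in wild type and 6192, 7053, 7166 and 6579 in the knockout, again with 2 wild-type libraries on each side.

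Most of the alpha ring did the same. Psma5 had 7281, 5387, 6063 and 10788 normalized counts in wild type and 6129, 6921, 6104 and 7136 in the knockout. Psma2 had 11386, 8058, 8591 and 16527 in wild type and 9111, 10959.5, 9308 and 10549 in the knockout. In both, wild-type replicate 4 was the highest of the 8 libraries and replicate 2 the lowest. Psma7 had 11556, 8212, 8448 and 12056 in wild type and 9801, 10632, 10205 and 9778 in the knockout, with wild-type replicates 1 and 4 above and replicates 2 and 3 below all knockout libraries. The other alpha subunits (Psma1, Psma3, Psma4 and Psma6) had a highest wild-type library 1.48 to 1.84 times the lowest, and replicate 4 was their highest library as well. In Psma1, however, knockout replicate 3 (6838) lay below wild-type replicate 2 (6874). In Psma4, knockout replicate 2 (7370) lay just above wild-type replicate 1 (7365).

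Counted over the particle, the wild-type libraries fell into the same pairs in every constitutive core gene. Wild-type replicates 1 and 4 were both above replicates 2 and 3 in 14 of 14 core genes, in 13 of 17 regulatory particle subunits and in 23% of all genes tested. The lowest wild-type library was replicate 2 or 3 in 14 of 14 core genes, in 14 of 17 regulatory subunits and in 49.7% of all genes. Replicate 4 of wild type was the highest of the 8 libraries in 13 of 14 core genes, in 7 of 17 regulatory subunits and in 21.2% of all genes. The exception in the core was Psmb7, where replicate 1 was highest. The median core gene was higher than its own mean over the 8 libraries by 0.17 and 0.57 on the log2 scale in wild-type replicates 1 and 4. It was at -0.32 and -0.24 in replicates 2 and 3, and between -0.14 and 0.09 in the knockout libraries. Regulatory subunits followed with a smaller swing, at 0.17, -0.03, -0.14 and 0.13 in wild type. Genes of 1 complex are not independent of each other, and each of these counts compares the same 8 libraries.

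The spread between libraries of the core genes was accordingly larger in wild type than in the knockout. The SD of the log2 values was larger over the 4 wild-type libraries in 14 of 14 core genes, in 16 of 17 regulatory subunits and in 41 of the 44 widely expressed genes, where it was larger in 70.5% of all genes. The median SD of the core genes was 0.41 in wild type and 0.10 in the knockout, beside 0.44 and 0.28 over all genes. All genes include those near the minimum for testing, far below the core genes, and no comparison at matched level was made. For the regulatory subunits the medians were 0.20 and 0.09. The highest wild-type library was 1.83 times the lowest in the median core gene, and the highest knockout library 1.16 times the lowest. Wild-type replicate 4 held much of this spread. Without it the median wild-type SD of the core genes was 0.27, and the SD was still larger in wild type in 13 of 14 core genes, beside 64.6% of all genes. No test of the difference in spread was made.

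Over all genes, the libraries differed by transcript length in the same arrangement. Tested genes with a principal transcript under 800 bases (1295 genes) had medians of 0.13, -0.39, -0.13 and 0.61 in wild-type replicates 1 to 4, and genes of 4000 bases or more (5041 genes) had -0.14, 0.13, 0.20 and -0.22. In the knockout libraries the medians lay between -0.03 and 0.07 for the short genes and between -0.03 and 0.10 for the long ones. Core transcripts are short: their median length was 1162.5 bases, that of the regulatory subunits 1636 bases and that of all tested genes 2751 bases. When the trend of each library on transcript length was subtracted, the range of the core median over the wild-type libraries fell from 0.88 to 0.22, and that of the regulatory subunits from 0.30 to 0.14. The median wild-type SD of the core genes became 0.14, beside 0.09 in the knockout, and the SD was larger in wild type in 11 of 14 core genes, beside 67% of all genes. The length adjustment was chosen after seeing the data, and what sets the length trend was not tested.

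**Figure D3:**
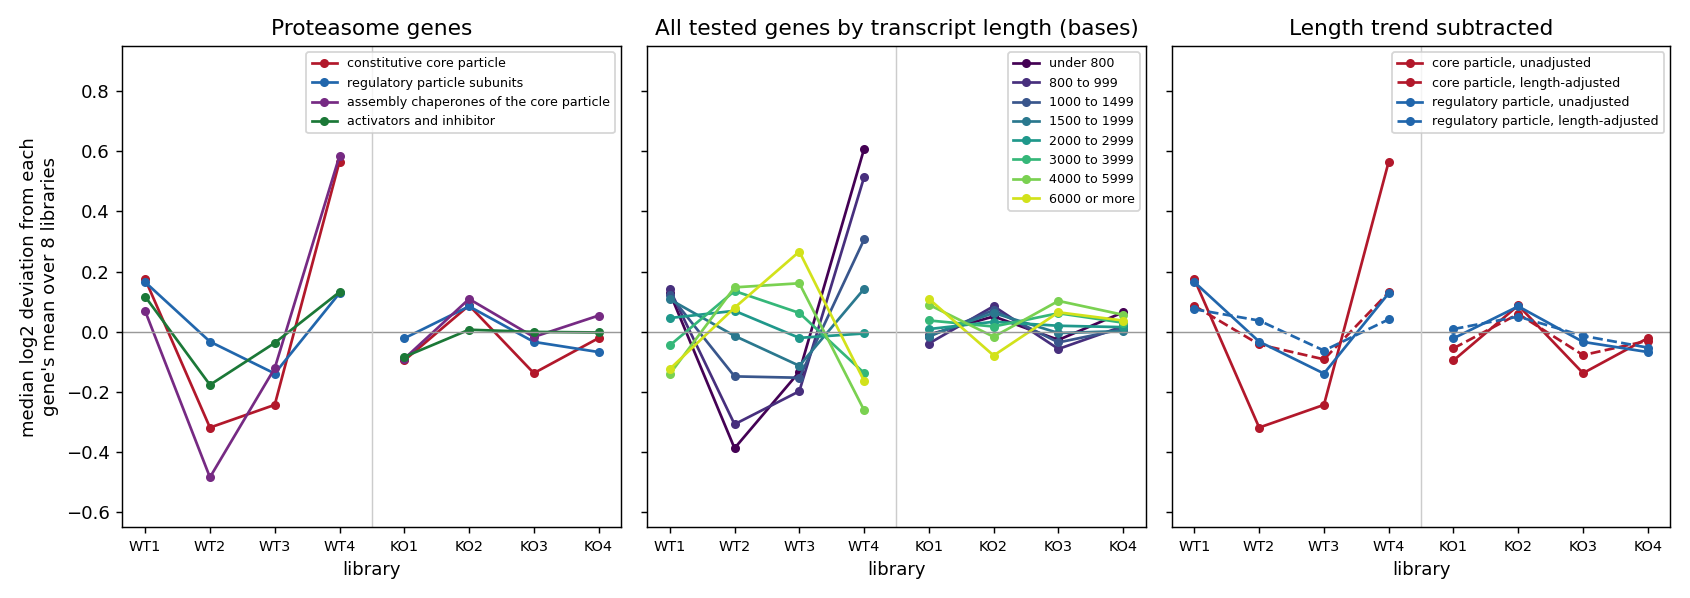
Median log2 deviation of each library from the gene's mean over the 8 libraries (WT, wild type; KO, Ndp knockout). Left, 4 groups of proteasome genes; middle, all tested genes in 8 classes of transcript length; right, the core and regulatory particle before and after the length trend of each library was subtracted. The core particle follows the genes under 1500 bases, and its range over the wild-type libraries falls from 0.88 to 0.22 with the adjustment.

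The core genes with long annotated transcripts did not lose their spread in the adjustment. Psma2 and Psma3, with principal transcripts of 2911 and 2846 bases, had wild-type SDs of 0.47 and 0.41 before and 0.53 and 0.47 after it. Psmb1 (1758 bases) went from 0.41 to 0.31, while Psmb2 (859 bases) went from 0.47 to 0.15 and Psmb6 (798 bases) from 0.44 to 0.10. The other core genes had an adjusted wild-type SD between 0.05 and 0.23. Whether Psma2 and Psma3 use shorter transcripts in these cells than the annotated ones was not tested.

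**Figure D4:**
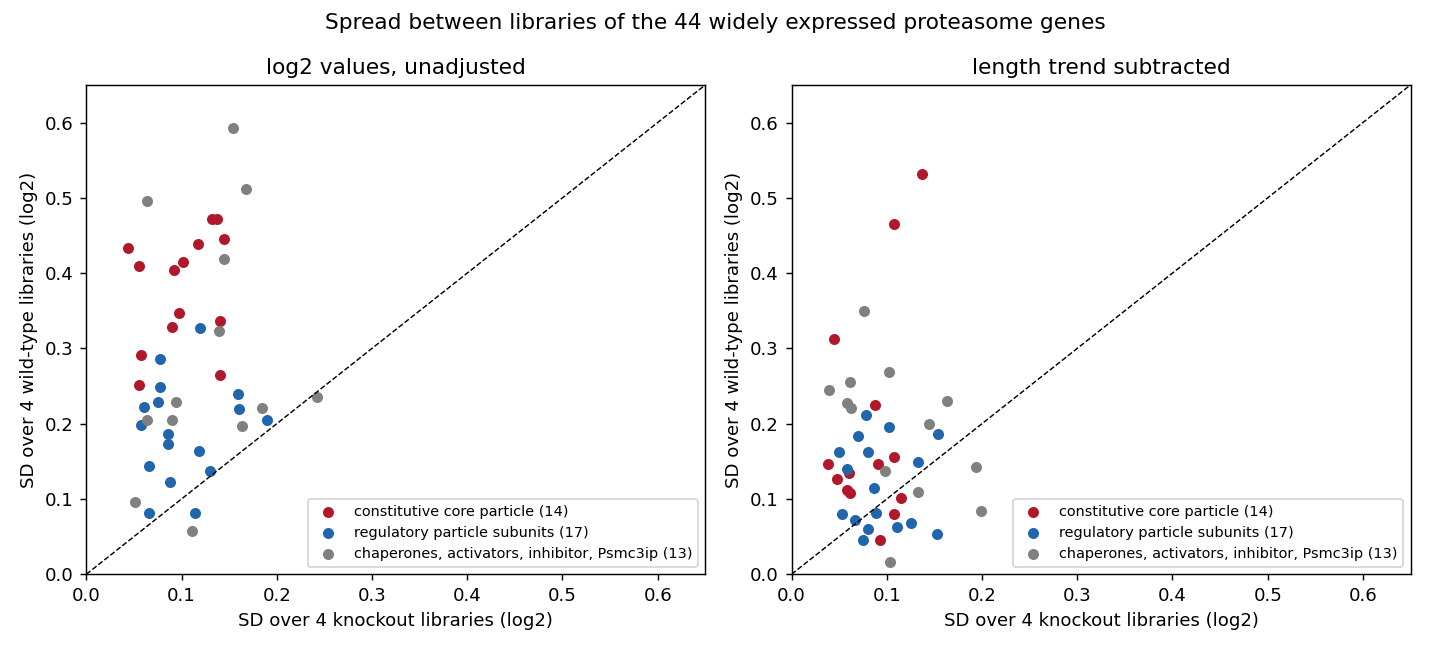
SD of log2(normalized count + 1) over the 4 wild-type libraries against that over the 4 knockout libraries for the 44 widely expressed genes, before (left) and after (right) the length trend was subtracted, with a dashed line of equal SD. Core genes (red) lie at a median of 0.41 in wild type before and 0.14 after, and Psma2 and Psma3 are the 2 core genes above 0.4 after it.

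Regulatory particle genes were steadier than core genes before the length adjustment. After it their median SD was 0.11 in wild type and 0.08 in the knockout, beside 0.14 and 0.09 for the core genes. The adjusted SD was larger in wild type in 11 of 17 regulatory subunits, beside 67% of all genes. Psmc3, an ATPase subunit, had 9807, 9606, 8734 and 9866 normalized counts in wild type and 9644, 10224, 9931 and 9186 in the knockout. Psmd1, the scaffold subunit of the base, had 10998, 12617, 11791 and 11685 in wild type and 10417, 12182, 10200.5 and 10792 in the knockout. The highest library was 1.13 times the lowest in wild type for Psmc3 and 1.15 times for Psmd1, and the genotypes overlapped in both. Psmd2, the other large scaffold and the proteasome gene with the highest count (19045 on average), ran against the core: it had 18612, 22259.5, 18568 and 14632 in wild type, highest in replicate 2 and lowest in replicate 4, and 19912, 19479, 20682 and 18215 in the knockout. Its transcript has 2961 bases. Psmd14, the deubiquitinating enzyme of the lid, had 4967, 4050.2, 3813 and 4811 in wild type and 4606, 4668, 4109 and 4320.2 in the knockout, which lay between the pairs of wild-type libraries.

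The lid subunit Psmd7, the partner of Psmd14, had the lowest log2 difference of the widely expressed genes. It had 7150.3, 6219, 5077 and 8698 normalized counts in wild type and 6047, 6115, 5274 and 5263 in the knockout. The genotypes overlapped, since wild-type replicate 3 was the lowest of all libraries, and the difference of -0.23 ± 0.17 (SE) had a limma adjusted p of 0.939. The ubiquitin receptor Psmd4 had 6618, 5655, 6069 and 7854 in wild type and 5464, 7372, 5730.0 and 6047 in the knockout, and here too the genotypes overlapped. The ATPase subunits had differences of -0.14 to 0.04, and the lid subunits of -0.23 to 0.09.

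Chaperones of the core particle had the widest swing of any widely expressed group. Psmg4 had 650.4, 339.6, 513 and 903 normalized counts in wild type and 603, 535, 465 and 536 in the knockout, a span of 2.66 times in wild type and 1.30 times in the knockout. Psmg3 had 870.0, 551, 829 and 1314 in wild type and 838, 1058, 1085 and 989.9 in the knockout. Both were lowest in wild-type replicate 2 and highest in replicate 4, and their transcripts are short, at 555 and 883 bases. The median of the 4 chaperones ranged over 1.07 on the log2 scale among the wild-type libraries and over 0.27 after the length adjustment. Psmg3 had the highest log2 difference of the widely expressed genes, 0.22, with an SE of 0.25 and a limma adjusted p of 0.971.

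Among the activators, Psme2 was arranged like the core in wild type and Psme1 only in part. Psme2 (962 bases) had 2904, 1858, 1985 and 3378 normalized counts in wild type and 1924, 2327, 1959 and 2288 in the knockout. Knockout replicates 1 and 3 of Psme2 lay below wild-type replicate 3. Psme1 (1112 bases) had 2527, 1921, 2255 and 2811 in wild type and 1774, 2604, 1893 and 2028 in the knockout, so knockout replicate 1 was its lowest library and knockout replicate 2 exceeded wild-type replicate 1. Psme1 and Psme2 encode the subunits of 1 ring and lie 5911 bases apart on chromosome 14 in the deposited coordinates. Psme3, which encodes a nuclear activator, was almost level at 7511, 7971, 7397 and 7276 in wild type and 7363, 7626, 8512 and 7141 in the knockout. Psme4 (6491 bases) was highest in wild-type replicate 3, at 2272, 2242, 3107 and 2776, and had 2479.6, 2291, 2686 and 2529.7 in the knockout.

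The immunoproteasome subunits were far below their constitutive counterparts. Psmb8, the counterpart of Psmb5, had 64.4, 17.3, 0 and 0 normalized counts in wild type and 21.1, 8.83, 65.0 and 31.9 in the knockout. Psmb9, the counterpart of Psmb6, had 7.39, 2.74, 6.24 and 9.30 in wild type and 2.11, 42.2, 22.6 and 9.90 in the knockout. Both lie in the MHC region of chromosome 17 (mm10), Psmb9 at 34181988 to 34187764 on the minus strand and Psmb8 at 34197721 to 34201454 on the plus strand. Psmb8 had high and low libraries in both genotypes, while Psmb9 was low in all 4 wild-type libraries and its high libraries were knockout replicates 2 and 3. The genotypes overlapped for both genes, and a floor of 3 reads was worth 2.34 to 3.49 normalized counts. Psmb10, the counterpart of Psmb7, was clearly detected in every library, with 528, 260.2, 190.2 and 469.7 in wild type and 239, 292, 329 and 297 in the knockout. Its knockout libraries lay inside the wild-type range. The log2 difference was 2.15 ± 1.34 for Psmb8 (limma adjusted p = 0.927) and -0.21 ± 0.33 for Psmb10 (limma adjusted p = 0.984), and Psmb9 was not tested. The difference of Psmb8 depended on the setting: it was 0.63 by edgeR, 0.64 by DESeq2, 3.77 with a pseudocount of 0.1 and 1.15 with 5. It was 3.31 without wild-type replicate 1 and 1.30 without wild-type replicate 3 or 4.

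Per kilobase, the constitutive gene exceeded the induced gene 551 times for Psmb5 over Psmb8, 1399 times for Psmb6 over Psmb9 and 15.2 times for Psmb7 over Psmb10. Over the union of exons these ratios were 1144, 1615 and 6.73. As a mean ± SD over 4 libraries per genotype, Psmb10 made up 6.51 ± 1.58% of its pair in wild type and 5.602 ± 1.14% in the knockout. The 8 libraries ran from 4.38% to 7.98% with overlap between the genotypes. Psmb8 made up between 0 and 0.463% of its pair, and Psmb9 between 0.0142 and 0.222%. No stretch of 31 bases was shared between an induced subunit and its counterpart, so reads of that length would not be exchanged between them. Psmb9 overlaps the peptide transporter gene Tap1 by 212 bases on the opposite strand, and the kit does not mark strand, so reads of that overlap cannot be told apart.

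Macrophage markers were present in the same libraries, and their sums followed the levels of the immunoproteasome subunits in some libraries only. The 12 markers, none at 0 in all libraries, summed to 5251, 2123, 2118 and 3078 normalized counts in wild type and 3849, 4151, 4445 and 6012 in the knockout, and C1qb alone made up 1799 and 1707 of the sums of wild-type replicates 2 and 3. The log2 difference was positive in 11 of the 12 markers, with a median of 1.74, and 4 (C1qa, C1qc, Fcer1g and Lyz2) had a limma unadjusted p under 0.05, all higher in the knockout, where 3.1% of all genes did. None of the 12 was called after adjustment by limma. The rise was not particular to macrophages. Of 5 tested endothelial markers 4 were positive and 1 negative (median 1.00), with 1 higher at a limma unadjusted p under 0.05. Of 9 mesenchyme and fibrocyte markers 7 were positive and 2 negative (median 0.66), with 3 higher at that limit. None of either list was lower at that limit or called. Wild-type replicate 1, the wild-type library with the highest sum, also had the highest Psmb8 and Psmb10 of its group, and replicate 3, with the lowest sum, had the lowest Psmb10. Replicate 4 had the next highest sum and Psmb10 (469.7) and the highest Psmb9 of the group (9.30), but 0 for Psmb8. Replicates 2 and 3 had nearly equal sums but differed in Psmb8 (17.3 and 0) and Psmb10 (260.2 and 190.2). In the knockout the highest sum was in replicate 4, while Psmb8 and Psmb10 were highest in replicate 3 and Psmb9 in replicate 2. The part of macrophage RNA in the levels of these subunits was not tested.

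**Figure D5:**
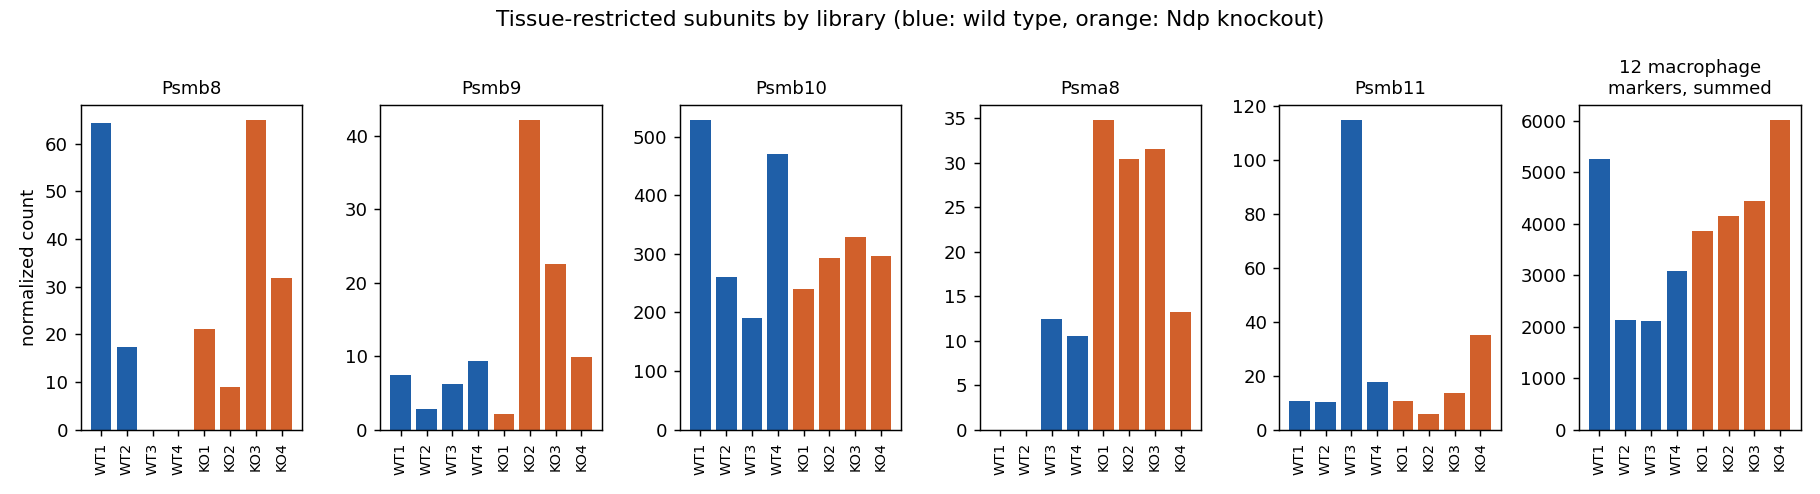
Normalized counts per library of Psmb8, Psmb9, Psmb10, Psma8 and Psmb11, and the summed counts of 12 macrophage markers, with a separate linear axis from 0 in each panel (WT, wild type, blue; KO, Ndp knockout, orange). Psma8 is the only one whose genotypes do not overlap, at 12.5 or less in wild type and 13.2 or more in the knockout.

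Psma8, which replaces Psma7 in the proteasome of the testis, was the gene with an unadjusted p under 0.05. It had 0, 0, 12.5 and 10.5 normalized counts in wild type and 34.8, 30.4, 31.6 and 13.2 in the knockout. The genotypes did not overlap, but knockout replicate 4 lay only just above wild-type replicate 3. The log2 difference was 2.93 ± 1.02 (SE), with a limma p of 0.0157 before and 0.895 after adjustment. A pseudocount of 0.1 raised that difference to 4.59 and one of 5 lowered it to 1.78. Groups did not overlap, with the knockout higher, in 1.46% of all genes tested, so the count of 1 among 48 is near the background. edgeR and DESeq2 gave no unadjusted p under 0.05 for it, and its unadjusted p in the authors' deposited table is 0.0581. Psma7 was 607 times higher than Psma8 on average, and 0% of the 31-base words of Psma8 were shared with Psma7.

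Psmb11, the beta subunit of the thymus, had 10.6, 10.04, 115 and 17.4 normalized counts in wild type and 10.5, 5.88, 13.5 and 35.2 in the knockout, with 1 high wild-type library and overlapping genotypes. It lies 3410 bases from Psmb5 on chromosome 14, and it shared no 31-base word with it. Psme2b did not exceed 9.30 in any library, and 76.5% of its words were shared with Psme2, so its reads cannot be assigned with certainty. Words shared with other annotated genes exceeded 50% in 5 of the 50 genes (Psme2b, Psmb5, Psmb3, Psma5 and Psme2), and the levels of these genes are uncertain to that extent. They were under 5% in 27 genes.

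Proteasome genes with other names included some that were arranged like the core. Of 5 such subunits and chaperones listed, 4 were in the table, and 0 of the 4 passed the test, with 1 positive and 3 negative differences. Pomp, the maturation protein of the core particle, had 7909, 4582, 5370.3 and 11080.1 normalized counts in wild type and 6041, 6944, 5802 and 6385 in the knockout (log2 difference -0.12 ± 0.24, limma adjusted p = 0.988). Sem1, the smallest subunit of the lid, had 3489.6, 1978, 2992 and 6561 in wild type and 3146, 3573, 2887 and 3849.5 in the knockout. Both were lowest in wild-type replicate 2 and highest in replicate 4, the arrangement of the core genes. Adrm1, a ubiquitin receptor, had a log2 difference of -0.09 ± 0.14, and Akirin2, which carries proteasomes into the nucleus, of 0.08 ± 0.15 (limma adjusted p of 0.984 and 0.988).

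The regulators of proteasome gene transcription did not differ between the genotypes by the test either. Of 9 genes, 0 passed, with 5 positive and 4 negative differences and a median of 0.03. Nfe2l1 had 6474, 13218, 9210.2 and 6889.9 normalized counts in wild type and 7306, 7442, 8741 and 9541 in the knockout, with the highest value in wild-type replicate 2, where the core genes were low. Ngly1, the enzyme that processes Nrf1, had 1758, 2064, 2015 and 1624 in wild type and 2289, 2525, 2165 and 2111 in the knockout. Its genotypes did not overlap, as in 3.04% of all genes, and its log2 difference of 0.29 ± 0.14 had a limma adjusted p of 0.903. The CCAAT-binding subunit Nfya had a difference of -0.61 ± 0.38 and Nfyb of 0.13 ± 0.19 (limma adjusted p of 0.927 and 0.980).

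Ubiquitin handling around the proteasome gave 10 positive and 3 negative differences in 13 genes, with a median of 0.11 and 0 calls by limma. Txnl1, a thioredoxin bound to the proteasome, had 3183, 3160.2, 2925 and 2779.9 normalized counts in wild type and 3259, 3794, 3410.4 and 3296 in the knockout. Its genotypes did not overlap, as in 3.04% of all genes, and its log2 difference was 0.19 ± 0.12 (limma adjusted p = 0.927). The heat- and arsenite-responsive gene Zfand2a had 0.32 ± 0.20 and the shuttle factor Ubqln4 0.36 ± 0.23 (limma adjusted p of 0.927 for both). Without wild-type replicate 4 these were 0.13 and 0.12. Of 6 ubiquitin genes and E1 enzymes 5 were positive and 1 negative, with 0 calls, and the E1 enzyme genes Uba6 and Uba1 had 0.27 ± 0.25 and 0.08 ± 0.13, which became 0.0953 and 0.0066 without wild-type replicate 1. The p97 segregase, which extracts substrates for the proteasome, and its cofactors gave 4 positive and 5 negative of 9, with Ubxn4 at -0.29 ± 0.14, Nsfl1c at -0.20 ± 0.14 and Faf1 at 0.26 ± 0.19 (0.0616 without wild-type replicate 4), and 0 calls. The COP9 signalosome, a complex related in structure to the lid, gave 6 positive and 4 negative of 10, with Cops2 at 0.17 ± 0.15, Gps1 at 0.08 ± 0.12 and Cops7b at -0.10 ± 0.15, and 0 calls.

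Peptide loading and MHC class I genes, which use the products of the proteasome, gave 9 positive and 2 negative differences in 11 genes, with a median of 0.23 and 0 calls by limma. Tap1 had 109.8, 191, 81.9 and 139.5 normalized counts in wild type and 151, 199, 361 and 205 in the knockout, with overlap between the genotypes. Its log2 difference was 0.80 ± 0.36 by limma, with an adjusted p of 0.895, while H2-D1 had 0.51 ± 0.30 and H2-K1 0.27 ± 0.22. Among 12 regulators and targets of interferon signalling 9 were tested, with 6 positive and 3 negative differences and 0 calls. Irf8 had 5.28, 0.913, 6.24 and 29.1 in wild type and 27.4, 23.5, 56.8 and 63.8 in the knockout, a log2 difference of 2.49 ± 0.83 with a limma adjusted p of 0.895 and overlap through wild-type replicate 4. Irf7 had 0, 21.9, 24.2 and 24.4 in wild type and 44.3, 32.4, 34.3 and 68.2 in the knockout, without overlap, as in 3.04% of all genes. Its log2 difference was 1.99 ± 0.99 (limma adjusted p = 0.903), and Ifit1 had 0.30 ± 0.20. The macrophage markers moved the same way, as given above, with 11 of 12 positive and a median log2 difference of 1.74. So did most markers of endothelium and of mesenchyme and fibrocytes. The macrophage sums overlapped between the genotypes and were highest in knockout replicate 4, the library with the highest Irf8 and Irf7. Tap1, H2-D1 and H2-K1 were highest in knockout replicate 3 instead (361, 1105 and 631), and Ifit1 in knockout replicate 1 (2396). The part of any of these cell types in these levels was not tested. Without wild-type replicate 1 the difference of Irf7 was 0.84, and without wild-type replicate 3 that of H2-D1 was 0.28, that of H2-K1 0.16 and that of Ifit1 0.13.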

How the data were processed

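RNA of sorted cochlear hair cells was measured in 8 libraries made with the SMART-Seq v4 and Nextera XT kits, per the labels' protocols. The authors deposited normalized gene counts (the signal columns), which the values show to be counts divided by 1 size factor per library, with log2 fold changes and p-values of their own DESeq2 comparison, per the file headers. Salmon 0.14.2, DESeq2 1.26.0, bcl2fastq 2.20 and the build mm10 are named in the submitters' processing notes, with no role given. Of 202744 values 100% were whole multiples of 1 step per library (tolerance 1e-06), and those multiples are called reads. They may be rounded estimates. The kit does not mark strand, so reads of overlapping genes on opposite strands cannot be told apart. PCR copies were not marked, so the floor of 3 reads covers counting error only.

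Groups came from the genotype labels, and replicates were numbered by accession, which pairs nothing. Since the table held normalized values, the main test was limma 3.58.1 (R 4.3.3) with an intensity trend on log2(normalized count + 1), two-sided, with Benjamini-Hochberg adjustment over 18203 genes and a threshold of 0.05. Differences on this scale are smaller than the true ratio for genes near 0, or larger where a library is at 0. SEs are those of the moderated difference and SDs are over libraries. edgeR 4.0.16 and DESeq2 1.42.0 ran on the reads. Levels per kilobase used the APPRIS principal transcript of GENCODE M21. The length adjustment subtracted, in each library, a lowess trend of the log2 deviation on log2 transcript length. In a simulation of 18203 genes with known changes, limma made 6 false calls, edgeR 6 and DESeq2 44.

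The genes, the lists and the tests were chosen with earlier results of these data known. Differences with SE and p were to be printed for Ndp, the immunoproteasome subunits and their counterparts, genes with an unadjusted p under 0.05, and up to 3 genes of each pathway list with the smallest p. For 1 gene so chosen the result is not reported here. Psmd7 and Psmg3, and the genes whose values by library are given as examples, were chosen after their values were seen. Titles hold dates of unstated meaning, and only wild-type replicate 2 and knockout replicate 2 share one, so date could not be a block. Coordinates of 48 of the 50 genes equal those of GENCODE M21.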

Additional observations from a re-analysis of the deposited data

Results flagged for a closer look

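In 100 groups of 4 libraries (50 genes in 2 genotypes), 3 had a library set apart from the other 3 by more than Dixon's 95% limit, where chance flags about 1 in 20 groups. Psmb11, the thymus subunit, had 114.6 normalized counts in wild-type replicate 3, where the next wild-type library had 17.4. Psmb4, a structural beta subunit, had 7419 in wild-type replicate 4, where the next had 5430.3. Psme2b had 9.30 in wild-type replicate 4, where the next had 0.913, below the floor of 3 reads.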

How the results depend on the processing

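No proteasome gene was called under any of the 18 alternatives, and the median log2 difference of the tested proteasome genes stayed between -0.13 (without the libraries of the shared title date) and 0.06 (without wild-type replicate 4). Over all genes limma called 0 with a pseudocount of 0.1, with a filter at 5 CPM, without the shared title date and with the length adjustment, while edgeR called 0, DESeq2 called 16, and leaving out 1 library gave 0 for 7 of the libraries and 2 without knockout replicate 2. Proteasome genes at an unadjusted p under 0.05 numbered 0 with the filter at 5 CPM, which leaves out Psma8, and 0 by edgeR and by DESeq2. Leaving out 1 library gave 1 to 2, with Psmb8 added without wild-type replicate 1, Psmd7 without replicate 3 and Psmb4 without replicate 4. Without the shared title date the 1 gene was Psme1. The median wild-type SD of the core genes was 0.14 with the length adjustment and 0.27 (without wild-type replicate 4) to 0.48 (without wild-type replicate 1) when 1 library was left out.

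Of 31 genes named by rule, 24 kept their sign and their side of the threshold throughout. Psmb7 turned to -0.00121 with TMM scaling, -0.0040 with library totals, -0.0254 by edgeR, -0.0235 by DESeq2 and -0.14 without the shared title date. Psmb5 turned to 0.0176 with the length adjustment. When 1 library was left out, the values ran from -0.11 to 0.11 for Psmb7, -0.15 to 0.17 for Psmb5, -0.27 to 0.0648 for Psmb6, -0.48 to 0.0107 for Psmb10, -0.16 to 0.00051 for Adrm1, -0.31 to 0.12 for Pomp and -0.15 to 0.0017 for Cops7b. Among genes that kept their sign the ranges were 0.0953 to 0.49 for Uba6, 0.12 to 0.56 for Ubqln4, 0.16 to 0.37 for H2-K1, 0.28 to 0.75 for H2-D1, 0.0695 to 0.26 for Nfyb, 0.12 to 0.28 for Cops2, 0.0213 to 0.14 for Gps1 and 0.0098 to 0.16 for Akirin2, and edgeR gave 1.33 for Irf7. The cause was not tested. No paired analysis was possible because the labels give no replicate numbers that the genotypes share. Depth limits Psma8, Psmb8, Psmb9, Psmb11 and Psme2b, whose counts in some libraries are at or near the floor of 3 reads.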
